A study of Mus musculus with 45 samples.

Results

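The nuclear genes of the mitochondrial respiratory chain were described in tuft cells of the small intestine of mice on a high fat diet (HFD) or a reference fat diet (RFD). The members were the protein-coding genes whose mouse symbol begins with Nduf, Uqcr, Cox4 to Cox8 or Atp5, or is Sdha, Sdhb, Sdhc, Sdhd, Cyc1 or Cycs. The count tables held 95 such genes, and 88 of them passed a filter of more than 5 reads in 6 or more libraries of 45, as 14020 genes in all did. All 36 measured subunits of complex I, 4 of complex II, 9 of complex III, 16 of complex V and somatic cytochrome c passed, as did 9 genes for assembly or coupling factors that carry an Nduf or Atp5 symbol. Of complex IV, 13 of 20 genes passed.

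The respiratory chain takes electrons from NADH at complex I and from succinate at complex II, hands them through coenzyme Q to complex III, through cytochrome c to complex IV and there to oxygen, and complex V uses the resulting proton gradient to make ATP. Most of its subunits are encoded in the nucleus and imported, while a few central ones are encoded by mitochondrial DNA. Tuft cells are chemosensory epithelial cells of the gut that release IL-25, and enterocytes, their far more numerous neighbours, burn dietary fat and glutamine in their mitochondria.

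All mice were male C57BL/6J, aged 5 weeks at arrival and housed at 30 °C, 4 to a cage, with 1 week of acclimatization. RFD held 10% and HFD 60% fat, and the labels name no genetic change in any group. Live EpCAM+ CD45+ Siglec-F+ cells were sorted from the epithelium of 20 cm of small intestine to enrich tuft cells, though elsewhere the study describes cells with CD45 as excluded, and each library came from the cells of 1 mouse, amplified as full-length cDNA. The libraries fell into an STF set with 11 mice on RFD and 11 on HFD and an LTF set with 11 on RFD and 12 on HFD. The study fed its mice for 9 or 22 weeks, but the labels of both sets read 9 weeks, so that the set and any difference in feeding time cannot be told apart.

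Total reads per library ran from 189340 to 4690213, and 2 STF libraries had fewer than 500000, RFD mouse 40 with 189340 and HFD mouse 50 with 409023. The members took a median of 1.77% of the reads on RFD and 1.99% on HFD in STF, and 2.08% and 2.48% in LTF. The share of reads on AY036118, Gm42418 and Lars2 had medians of 12.02% on RFD and 4.66% on HFD in STF and of 9.02% and 5.61% in LTF. Nearly all of this share was AY036118 in every library. All 16 tuft markers were detected in each group, and their summed level had medians of 16530 counts per 1000000 reads (CPM) on RFD and 6977 on HFD in STF, and of 18500 and 14270 in LTF, with a lowest library of 355 on HFD in STF. Markers of other epithelial cells were present too. The summed level of 6 Paneth cell genes had medians of 2520 and 26580 CPM on RFD and HFD in STF, where it reached 534600 in 1 HFD library, and of 1428 and 10510 CPM in LTF. In all that follows, fewer cells of a type and less RNA per cell cannot be told apart. The part of these differences in the members' values was not tested beyond the fits with marker scores given with the results. The tuft marker score was the mean log2 CPM of the tuft markers minus that of the markers of all other cell types. It therefore also falls where Paneth, stem or other markers rise. The enterocyte score was the mean log2 CPM of the enterocyte genes alone.

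Per transcript length, the members were among the most abundant genes of these cells. Their mean levels over the 45 libraries had a median of 373 transcripts per 1000000 (TPM), against 5.12 over all genes tested, and 79 of the 88 stood above the 90th percentile. Within complex I the mean TPM ran from 42.1 for Ndufa11 to 1563 for Ndufa1, both accessory membrane subunits, and the next highest were Ndufb9 with 806 and Ndufb8 with 705. For Ndufa11 the TPM did not follow the reads, which came to 11098 for an annotated length of 545 bases. Ndufa3, with 7095 reads and 515 bases, had 689 TPM. The reason was not tested, so the order of genes by TPM is uncertain. Complex II, which has 4 subunits and is the only complex made wholly from nuclear genes, was led by its iron-sulfur subunit Sdhb with 391.8, before the anchor Sdhd with 204 and the flavin subunit Sdha with 174. In complex III the small subunits Uqcr11, Uqcrq and Uqcr10 had 1756, 930 and 927, and in complex IV Cox8a, Cox6b1 and Cox6a1 had 1834, 1597 and 1554. Complex V was led by Atp5e with 1237, a subunit of the central stalk, by the small proteolipid Atp5mpl with 1159 and by Atp5b with 1092, the catalytic beta subunit. Cycs had 282. The assembly and coupling factors were lower with a median of 11.2 and with Ndufaf8 highest at 109, Ndufaf3 at 41.0 and Ndufaf2 at 29.5.

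**Figure D1:**
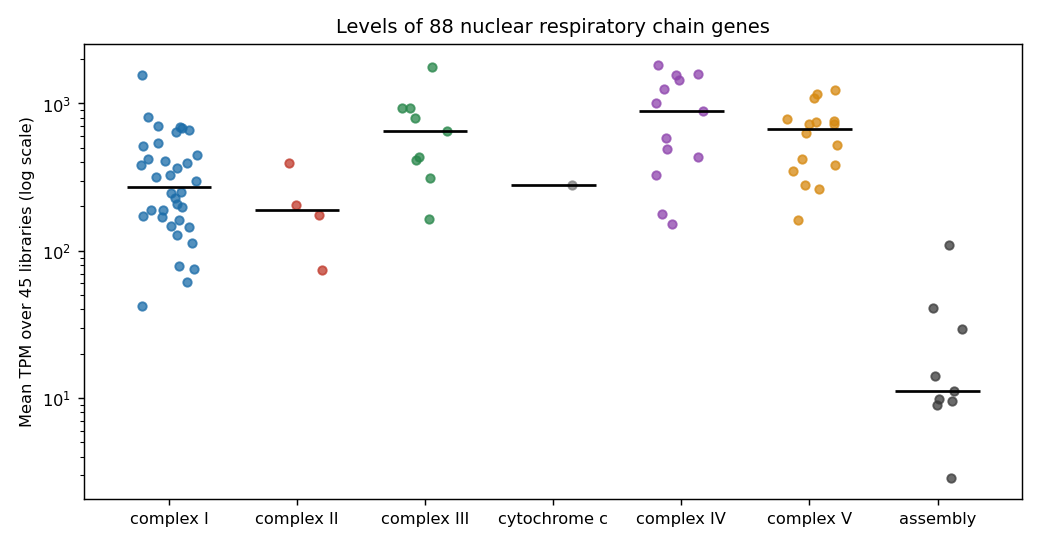
Mean level of each of the 88 members over 45 libraries in TPM, on a log axis, by complex, with 1 point per gene and the median of each complex as a bar. Complex IV has the highest median (886) and the assembly and coupling factors the lowest (11.2).

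Between libraries of the same group the members varied less than most genes. The median coefficient of variation of CPM over members was 30.2% and 25.8% on RFD and HFD in STF and 24.6% and 21.6% in LTF, where over all genes tested it was 70.4%, 66.0%, 62.2% and 55.9%. Reads were found in every library for 81 of the 88 members, and low counts raise this spread.

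The isoform genes were almost all on the side of the common form. Cox4i1, the common form of subunit 4, had 1259 ± 415 TPM (SD, n = 45), and Cox4i2, its lung and hypoxia form, had reads in only 2 libraries. Cox6a2, Cox6b2, Cox7b2, Cox8c and Ndufa4l2 had reads in 5, 25, 3, 2 and 10 libraries and failed the filter, and Cox8b, a heart and muscle form, had no read in any library. Subunit 7A was the exception, because its heart and muscle form Cox7a1 had 176 ± 108 TPM (SD, n = 45) beside 585 ± 236 for the common Cox7a2 and 151 ± 52.6 for Cox7a2l, a relative that sits in supercomplexes. The median share of Cox7a1 in the TPM of the 3 genes was 15.95% on RFD and 13.7% on HFD in STF, and 21.7% and 22.7% in LTF. For the proton ring of complex V, whose 3 genes encode the same mature subunit c, Atp5g1 made up a median of 63.6% of the TPM, Atp5g3 23.6% and Atp5g2 13.2%.

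Nuclear respiratory chain genes are known for promoters that bind NRF1, the ETS factor GABPA and YY1, and the windows from 250 bases before to 50 bases after the annotated start were searched on both strands for fixed letters (RefSeq, GRCm38.p6). A window was in the table for 72 of the 88 members and for 27025 genes in all. The NRF1 motif with 1 free base stood in 26.4% of the members and 5.19% of all genes with a window, and its full palindrome, which is a part of that count, in 9.72% and 1.07%. The ETS letters CCGGAAG stood in 18 of 72 members and 9.93% of all genes, the YY1 motif in 8.33% and 0.995%, and the estrogen-related receptor letters TNAAGGTCA in 4.17% and 1.43%. The SP1 letters GGGCGG were found in 44.4% and 38.2%, and the TATA letters TATAAA in 6.94% and 15.7%. A match of letters is a description of the window and not a bound site.

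A few of these windows are shown up to the annotated start, to set the members with the clearest diet difference beside members rich in matches, with matches to the searched letters in capitals. The 2 members that passed the diet test, Ndufa4 (chr6:11907451-11907700, minus strand) and Ndufc2 (chr7:97399753-97400002, plus strand), held none of the searched letters in these 250 bases. Sdha (chr13:74350241-74350490, minus strand) held the NRF1 motif at 98, 55 and 10 bases before the start, and Cox6a1 (chr5:115348959-115349208, minus strand) held the NRF1 palindrome at 162 bases, a further NRF1 match at 117, SP1 letters at 139 and 44 and ETS letters at 16.
Ndufa4: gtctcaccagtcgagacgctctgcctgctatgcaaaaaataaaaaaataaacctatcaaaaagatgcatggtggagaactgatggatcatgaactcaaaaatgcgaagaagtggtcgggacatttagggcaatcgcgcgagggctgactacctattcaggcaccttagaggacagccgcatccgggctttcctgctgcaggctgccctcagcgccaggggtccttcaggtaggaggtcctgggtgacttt
Ndufc2: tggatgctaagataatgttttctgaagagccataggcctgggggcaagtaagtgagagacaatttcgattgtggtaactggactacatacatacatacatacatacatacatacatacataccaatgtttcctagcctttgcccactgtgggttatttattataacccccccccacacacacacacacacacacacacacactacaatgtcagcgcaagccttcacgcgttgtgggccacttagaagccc
Sdha: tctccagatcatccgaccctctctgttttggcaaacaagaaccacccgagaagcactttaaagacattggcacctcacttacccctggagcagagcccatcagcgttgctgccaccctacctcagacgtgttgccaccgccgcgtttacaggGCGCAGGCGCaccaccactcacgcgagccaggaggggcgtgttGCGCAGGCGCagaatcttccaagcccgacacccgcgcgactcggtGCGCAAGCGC
Cox6a1: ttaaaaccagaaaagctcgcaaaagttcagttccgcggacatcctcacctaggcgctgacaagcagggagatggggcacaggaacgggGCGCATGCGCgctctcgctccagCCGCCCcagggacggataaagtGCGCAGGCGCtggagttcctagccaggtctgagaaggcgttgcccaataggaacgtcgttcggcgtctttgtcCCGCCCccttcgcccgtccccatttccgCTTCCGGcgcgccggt

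The diet difference was set beside these letters. In STF the median log2 fold change was 0.22 over the 19 members with the NRF1 motif and 0.14 over the 53 without, and in LTF 0.01 and 0.04. For the ETS letters it was 0.06 over 18 members and 0.17 over 54 without in STF, and 0.02 and 0.04 in LTF. For the SP1 letters it was 0.26 over 32 members and 0.12 over 40 without in STF, and 0.00 and 0.04 in LTF. For the YY1 motif it was -0.02 over 6 members and 0.16 over 66 without in STF, and -0.01 and 0.03 in LTF.

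HFD was compared with RFD within each set to see whether a diet rich in fat goes with another level of the respiratory chain genes in tuft cells. In STF, 2 of the 88 members rose and 0 fell at an adjusted p under 0.1 by the quasi-likelihood F test of edgeR, adjusted by Benjamini and Hochberg over all genes, a share of 2.27% beside a background of 3.32% of all genes tested. In LTF, 1 of 88 rose and 0 fell, or 1.14%, beside 0.792% of all genes. These shares lay near their backgrounds. With DESeq2, 11 members passed in STF, 7 of them higher, beside 10.9% of all genes, and 2 passed in LTF, beside 2.50% of all genes. At an unadjusted p under 0.05 there were 16 higher and 3 lower members in STF, or 18.2% and 3.41%, where all genes tested gave 9.73% and 8.27%. In LTF there were 2 higher and 0 lower, or 2.27% and 0.0%, where all genes gave 4.69% and 5.61%. These counts rested on single libraries. Leaving out 1 library gave 9 to 28 members at that p in STF, with 9 to 11 without HFD mouse 6 or 80 or RFD mouse 21 or 24. In LTF it gave 2 to 24, with 4 to 24 without RFD mouse 1, 2, 3, 4 or 30 or HFD mouse 5, 31, 33, 50, 65 or 70. No member had CPM ranges of the diets that did not overlap, as was the case for 0.00713% of all genes in STF and 0.0143% in LTF.

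Most members were fitted higher on HFD, by small amounts. In STF 61 of 88 members (69.3%) were fitted higher on HFD with a median log2 fold change of 0.18, and in LTF 56 (63.6%) with a median of 0.05, whereas 47.3% and 47.9% of all genes were fitted higher, with medians of -0.05 and -0.03. The mean log2 CPM over the 88 members was 7.08 ± 0.35 on RFD and 7.27 ± 0.24 on HFD in STF (SD, n = 11 each). In LTF it was 7.26 ± 0.15 on RFD (SD, n = 11) and 7.40 ± 0.15 on HFD (SD, n = 12). The groups overlapped widely, with ranges of 6.25 to 7.66 and 6.90 to 7.68 in STF and of 7.07 to 7.47 and 7.10 to 7.62 in LTF. The lowest STF value, 6.25, was RFD mouse 40, the library with the fewest reads, and without it and HFD mouse 50 the median log2 fold change in STF was 0.09. Leaving out 1 library gave medians from 0.099 to 0.258 in STF, the lowest without RFD mouse 40, and from 0.018 to 0.098 in LTF. In LTF the median moved by more than 1.5 times without RFD mouse 1, 10, 21 or 22 or HFD mouse 6, 33, 50 or 80. Within the 3 series of mouse numbers (1 to 8, multiples of 10, and other numbers from 21 to 64, with RFD mouse 84 of STF and HFD mouse 65 of LTF outside), the median difference over members was 0.05, 0.27 and 0.10 in STF and 0.16, 0.09 and 0.09 in LTF. Over all genes it was 0.13, 0.04 and -0.10, and 0.33, -0.05 and -0.10. In series 1 of each set the members therefore lay below all genes. The labels do not say what a series is. The study killed its mice over 3 days in a row and took 1 cage of each group per day. Neither cage nor day is given in the labels, and the fits reported had no term for them. Mice of the same cage or day were therefore treated as independent, and the part of cage and day was not tested.

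The sets, which share no mouse, gave like values gene by gene. The fold changes of the 88 members had a Spearman rho of 0.772 between STF and LTF, and those of all genes tested 0.489, as a description across genes that share libraries. Both sets were fitted higher for 49 members and lower for 20, or 78.4% of the same sign, where all genes had 70.4%. The fold changes of the members were also measured more precisely. Their median standard error was 0.202 in STF and 0.164 in LTF, where all genes had 0.496 and 0.424. The part of this precision in the likeness of the sets was not tested. For the difference between the sets, the edgeR test called 0 of 88 members and 0 of 14020 genes at an adjusted p under 0.1. At an unadjusted p under 0.05 it gave 0 members and 3.22% of all genes (1.94% with a higher and 1.28% with a lower diet difference in LTF), and DESeq2 also called 0 members. The median member had a standard error of 0.25 on the log2 scale for this difference.

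**Figure D2:**
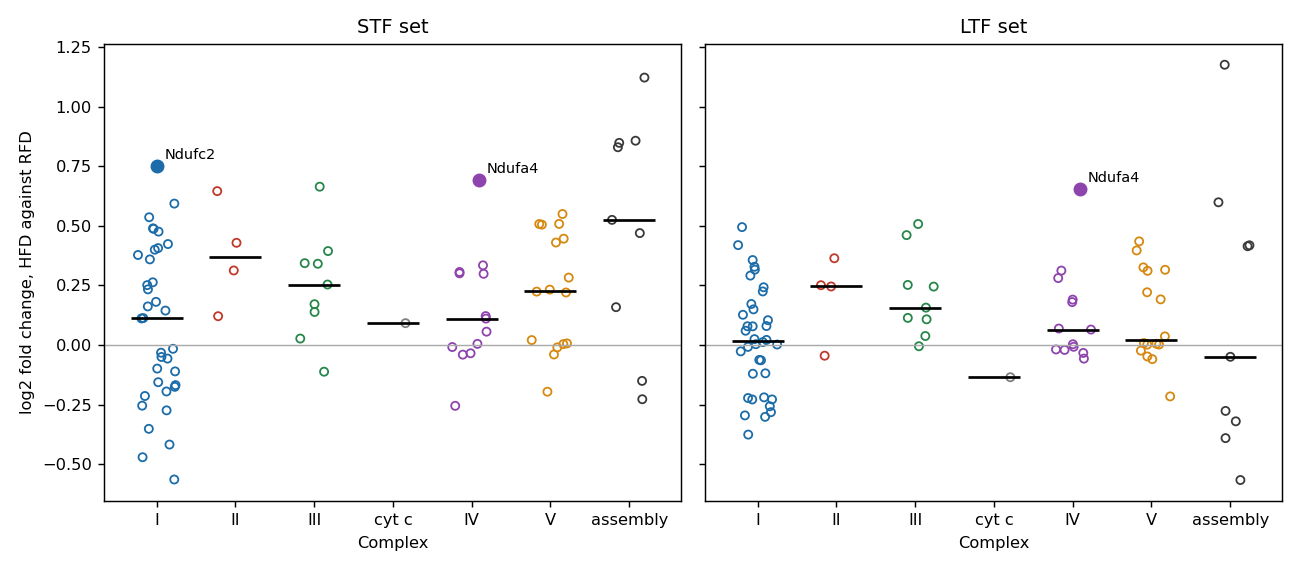
Fitted log2 fold change of HFD against RFD for each member in the STF and LTF sets, by complex, with filled and named points for an adjusted p under 0.1 and bars at the median of each complex. Ndufa4 is filled in both sets and Ndufc2 in STF only, while complex I straddles 0 in both.

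Ndufa4, a small subunit of complex IV that was first taken for part of complex I, was the member with the smallest p in each set and the single one to pass in both. The gene (ENSMUSG00000029632) spans bases 11900292 to 11907497 of chromosome 6 (GRCm38, GENCODE M21) and is read from the minus strand. In STF it had 66.2 CPM in the lowest, 97.8 in the median and 157 in the highest library on RFD, and 103, 168 and 225 on HFD. In LTF the same values were 85.8, 131 and 221 on RFD and 160, 211 and 274 on HFD. All 11 HFD mice of STF and all 12 of LTF were above the RFD median of their set, and 6 and 3 of them were above every RFD mouse, so that the groups overlapped. It rose by 0.69 on the log2 scale in STF (SE 0.20, adjusted p = 0.0757, edgeR) and by 0.65 in LTF (SE 0.16, adjusted p = 0.0625), and the difference between the sets was 0.01 (SE 0.24). The differences in mean log2 CPM within the 3 number series were 0.75, 0.50 and 0.65 in STF and 0.53, 0.81 and 0.71 in LTF.

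The size of the Ndufa4 difference held better than its call. Leaving out any 1 library kept it between 0.62 and 0.79 in STF and between 0.60 and 0.80 in LTF. The adjusted p then ran from 0.0255 to 0.156 in STF and was 0.1 or more without RFD mouse 1, 3, 21, 22, 23, 24 or 84 or HFD mouse 5, 6, 8, 50, 62, 70 or 80. In LTF it ran from 0.00725 to 0.129 and was 0.1 or more without RFD mouse 21, 22, 23 or 40 or HFD mouse 6, 7, 32 or 80. With the tuft marker score as a covariate it was 0.309 in STF, where the log2 fold change was 0.50, and stayed under 0.1 in LTF. With limma on log2(TPM + 1) it was 0.544 in STF. Over all alternatives other than single libraries, the call was lost in 6 of 18 in STF, with adjusted p from 0.0128 to 0.6, and in 4 of 17 in LTF, with adjusted p from 0.00492 to 0.971. The LTF losses were with limma-voom, without the filter and without number series 2 or 3.

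Ndufc2, an accessory membrane subunit of complex I (ENSMUSG00000030647, chromosome 7 from 97400003 to 97407802, plus strand), was the other member that passed in STF. It had 7.78, 37.9 and 56.9 CPM in the lowest, median and highest RFD library and 44.4, 59.7 and 100.3 on HFD, where all 11 mice were above the RFD median and 6 above every RFD mouse. It rose by 0.75 (SE 0.23, adjusted p = 0.0970, edgeR). In LTF it had 34.5, 57.5 and 78.3 CPM on RFD and 50.6, 72.3 and 115 on HFD, and its log2 fold change of 0.36 did not pass (SE 0.18, adjusted p = 0.495). The test of the difference between the sets gave -0.36 (SE 0.27, adjusted p = 1.00). Its lowest RFD value, 7.78, was mouse 40, without which the STF call was lost. The STF call was kept without RFD mouse 4 or 20 or HFD mouse 60, 63 or 64 and lost without any of the remaining 17, with adjusted p from 0.035 to 0.195 over all 22 and folds from 0.65 to 0.83.

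**Figure D3:**
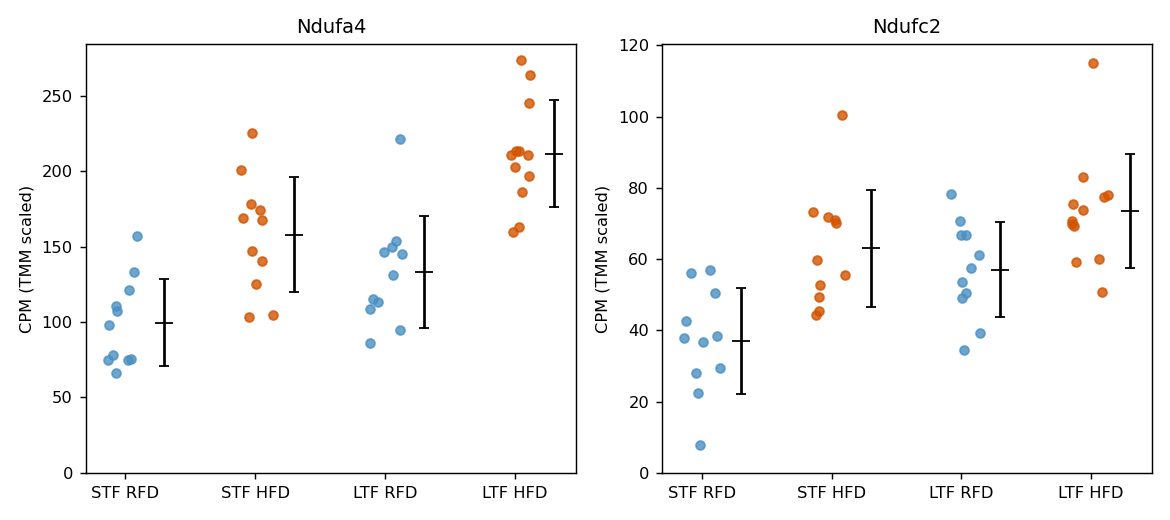
CPM of Ndufa4 and Ndufc2 in each library by set and diet, with the mean and SD beside the points of each group of 11 or 12 mice. For Ndufa4, the HFD libraries run from 103 to 225 in STF and from 160 to 274 in LTF, and the RFD libraries from 66.2 to 157 and from 85.8 to 221.

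Complex I, which opens the chain by oxidising NADH, was split within itself. In STF 19 of its 36 subunits were fitted higher and 17 lower, with a median of 0.11, and in LTF 21 and 15 with a median of 0.02. Of its 7 nuclear core subunits, which carry the flavin and the iron-sulfur clusters, 5 in STF and 6 in LTF were fitted higher, with medians of 0.42 and 0.15, while the 29 accessory subunits had medians of -0.02 and 0.00. Ndufs1, the largest core subunit, had a median of 160 CPM on RFD and 178 on HFD in STF. Its difference was 0.54 on the log2 scale in STF (SE 0.23, adjusted p = 0.217) and 0.15 in LTF (SE 0.21, adjusted p = 0.862, both edgeR). Ndufv1, where electrons from NADH enter, had 0.14 in STF (SE 0.19) and 0.10 in LTF (SE 0.15). Ndufs7, a core subunit with iron-sulfur clusters that was singled out after its values were seen, went the other way in STF. It had 226, 258 and 304.9 CPM in the lowest, median and highest RFD library and 168, 203 and 314 on HFD, with 10 of 11 HFD mice below every RFD mouse and 1 above every one. Its difference was -0.27 on the log2 scale in STF (SE 0.15, adjusted p = 0.33, edgeR) and -0.12 in LTF (SE 0.15). None of the 3 passed the edgeR test in either set, and Ndufs7 was among the members called with DESeq2 in STF.

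The members with the lowest fold changes in STF were accessory subunits of complex I. Ndufa1, the most abundant complex I transcript per length, had 131, 246 and 332 CPM in the lowest, median and highest RFD library of STF and 63.8, 161 and 286 on HFD. Of the HFD mice 5 of 11 were below every RFD mouse, and the difference was -0.56 on the log2 scale (SE 0.22, adjusted p = 0.175, edgeR), the lowest of all members in STF, with -1.04, -0.46 and -0.20 in the 3 number series. In LTF it was -0.30 (SE 0.21, adjusted p = 0.672). The other lower members with an unadjusted p under 0.05 in STF were Ndufb7 with -0.47 and Ndufa13 with -0.42, which were singled out after their values were seen. In LTF they had -0.30 and -0.38. None of the 3 passed the adjusted threshold of the edgeR test reported in either set. In STF all 3 were among the members called with DESeq2. Over the 18 alternatives other than single libraries in STF, Ndufa1 passed in 3, Ndufb7 in 4 and Ndufa13 in 1. Ndufb6, also singled out after its value was seen, was next to Ndufa4 the other member with an unadjusted p under 0.05 in LTF, at 0.49 on the log2 scale (SE 0.19, adjusted p = 0.319, edgeR) and 8 of 12 HFD mice above every RFD mouse, and 0.48 in STF. For Ndufb6, 93.3% of its nonzero counts were fractional, and its exons overlap those of Smim27 on the opposite strand by 257 bases, so its level is uncertain.

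Most subunits of complexes II and III were fitted higher, without a call in the edgeR fits reported. Among the alternatives in STF, Sdhd was called with DESeq2 and with the enterocyte score as a covariate. Uqcrc2, singled out for its calls, was called there with the enterocyte score and without the filter. All 4 genes of complex II were fitted higher in STF and 3 in LTF, with medians of 0.37 and 0.25. Sdha, the subunit that oxidises succinate, had 241, 401 and 663 CPM in the lowest, median and highest RFD library of STF and 309, 597 and 757 on HFD, and 265, 412 and 972 against 414, 513 and 856 in LTF. The ranges overlapped for most libraries in each set, and the log2 fold changes were 0.43 (SE 0.22, adjusted p = 0.307) and 0.25 (SE 0.19, adjusted p = 0.718, edgeR). Its partner Sdhb had 0.12 and -0.05. In complex III 8 of 9 genes were fitted higher in each set, with medians of 0.25 and 0.16. Its core subunit Uqcrc1 had 0.25 in STF and 0.24 in LTF, and the Rieske iron-sulfur subunit Uqcrfs1 had 0.34 and 0.25. Cyc1, which passes electrons to cytochrome c, had 0.34 (SE 0.25) and 0.51 (SE 0.25, adjusted p = 0.496, edgeR), the latter with a median of 341 CPM on RFD and 420 on HFD and 1 HFD mouse at 1456. Cycs itself had 0.09 and -0.14, with medians of 609 and 651 CPM in STF and of 680 and 616 in LTF, and 97.8% of its counts were fractional, so its level is uncertain. With limma on TPM the STF values of Sdhb and Cycs turned to -0.05 and -0.21.

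Ndufa4 aside, no gene of complex IV passed. Of its 13 genes 9 in STF and 8 in LTF were fitted higher, with medians of 0.11 and 0.06. Cox5a, Cox7c, Cox7a2l and Cox7b had 0.33, 0.31, 0.30 and 0.30 in STF and 0.19, -0.02, 0.31 and 0.18 in LTF. Cox4i1 had 319, 577 and 920 CPM on RFD and 380, 586 and 674 on HFD in STF, a difference of -0.01 on the log2 scale (SE 0.17), and 0.07 in LTF (SE 0.14). Cox7a1 had -0.26 in STF (SE 0.36) and 0.28 in LTF (SE 0.25), and its difference ran from -0.65 to 1.05 among the number series of STF, with 0.06 for the set by limma on TPM.

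Of the 5 complexes, complex V had the largest share of members with an unadjusted p under 0.05 in STF, 5 of 16 and all higher, beside 18.0% of all genes, and 0 in LTF, beside 10.3%. Both genes of the catalytic head were fitted higher in each set, and those of the shaft differed among themselves. Atp5b had 607, 1168 and 1934 CPM in the lowest, median and highest RFD library of STF and 1102, 1679 and 2638 on HFD, and 1124, 1351 and 2792 against 1380, 1737 and 4166 in LTF. In STF 10 of 11 and in LTF 12 of 12 HFD mice were above the RFD median, though only 3 and 1 were above every RFD mouse. The log2 fold changes were 0.51 (SE 0.21, adjusted p = 0.197) and 0.31 (SE 0.20, adjusted p = 0.625, edgeR), with 0.39, 0.62 and 0.51 in the number series of STF and 0.32, 0.30 and 0.34 in those of LTF. Atp5a1, the alpha subunit, had 0.51 and 0.40, and Atp5c1, the gamma subunit of the shaft, 0.55 and 0.43. The other shaft genes were lower, with 0.01 and 0.01 for Atp5d, the delta subunit, and -0.20 and -0.22 for Atp5e, the epsilon subunit. Of the subunit c genes, Atp5g1 had 0.43 and 0.19 and Atp5g2 0.45 and 0.33, with 82.2% and 91.1% of their counts fractional. None of these passed the edgeR test reported, while Atp5b and Atp5g2 were among the members called with DESeq2 and with limma-voom in STF.

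The assembly and coupling factors had the widest values and the least reads. In STF 7 of 9 were fitted higher with a median of 0.52, and in LTF 4 of 9 with a median of -0.05. Ndufaf1, which helps to build the membrane arm of complex I, had the highest fold change of all members in STF, 1.12 (SE 0.44, adjusted p = 0.171, edgeR), with 0.319, 9.77 and 31.1 CPM on RFD and 8.70, 31.04 and 51.1 on HFD, and 0.41 in LTF. Ndufaf6 had the highest in LTF, 1.18 (SE 0.64, adjusted p = 0.544), with no read in 7 of the 45 libraries. Ndufaf7 had the lowest in LTF, -0.57 (SE 0.36, adjusted p = 0.621), where 1 RFD library stood at 140 CPM against a median of 18.4, and 0.47 in STF. None passed the edgeR test reported in either set, while Ndufaf1 passed in 4 of 18 alternatives in STF. The standard errors of the members, 0.147 to 0.801 in STF, were highest here.

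The fold changes differed with the length of the transcript. Over members, the Spearman rho between annotated transcript length and the log2 fold change was 0.505 in STF and 0.37 in LTF. Over all genes tested it was -0.11 and -0.104, as a description across genes that are not independent. The 30 shortest members (371 to 683 bases) had medians of -0.01 and -0.02, the 29 of middle length (704 to 1251) 0.18 and 0.01, and the 29 longest (1363 to 4715) 0.42 and 0.25, with 27 and 24 of these 29 fitted higher. In all genes tested the same length classes ran the other way, with medians of 0.15, 0.04 and -0.06 in STF and of 0.10, 0.01 and -0.03 in LTF. In the members, length went with role only in part. The core Ndufs1 and the catalytic Atp5a1 and Atp5b had 2661, 2471 and 1916 bases, and the core Ndufs7 had 983. The longest were Atp5g1 of the proton ring with 4715 and the accessory subunit Ndufb2 with 4371. For both the mean TPM did not follow these lengths. Atp5g1 had 26565 reads in all and 759.5 TPM, and Ndufb2 7521 and 296, beside 144651 and 1092 for Atp5b. The forms measured may be shorter, so the length class of such genes is uncertain. The parts of length and role were not tested.

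**Figure D4:**
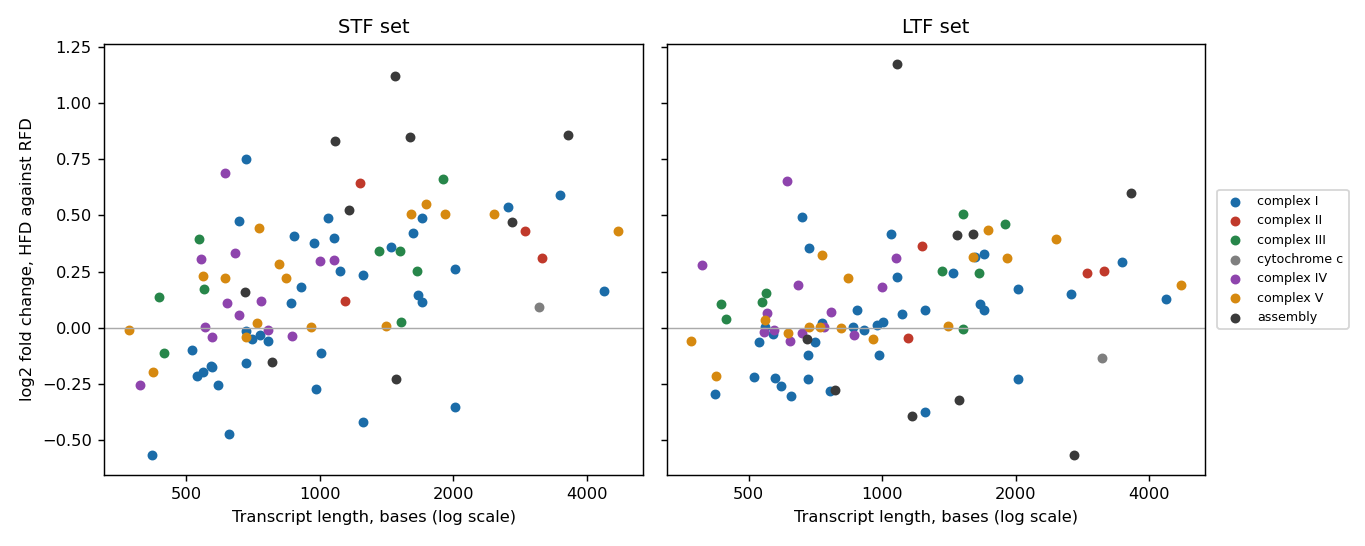
Log2 fold change of HFD against RFD for each member against its annotated transcript length on a log axis, in STF and LTF, coloured by complex. Of the 29 longest members 27 in STF and 24 in LTF lie above 0, and of the 30 shortest 14 and 13, with a Spearman rho of 0.505 and 0.37.

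The neighbours of the chain that make coenzyme Q or pass electrons to it were counted in the same way. In STF 3 of 13 genes of coenzyme Q synthesis rose and 1 fell, and 2 of 7 genes of electron entry rose. These calls made up 30.8% and 28.6% of the lists, beside 3.32% of all genes. In LTF 0 of both lists passed, beside 0.792% of all genes. At an unadjusted p under 0.05 LTF had 1 and 2 genes, or 7.69% and 28.6%, beside 10.3% of all genes. Coq4, of the coenzyme Q complex, had 0.0, 12.1 and 36.8 CPM on RFD and 17.4, 31.9 and 59.0 on HFD in STF, a rise of 1.08 (SE 0.32, adjusted p = 0.0816), and 0.98 in LTF (SE 0.36, adjusted p = 0.304, edgeR), where all 12 HFD mice were above the RFD median and 6 above every RFD mouse. Pdss1, which starts the side chain of coenzyme Q, rose by 1.24 in STF (SE 0.35, adjusted p = 0.0757), with 11 of 11 mice above the RFD median, and had 0.69 in LTF. Coq8a, an atypical kinase of the same pathway, rose by 1.16 (SE 0.31, adjusted p = 0.0662), and Coq2, which joins ring and side chain, fell by 1.07 (SE 0.33, adjusted p = 0.0963, edgeR). Coq8a had 0.45 and Coq2 -0.50 in LTF. With limma on TPM or the tuft marker score as a covariate none of these 4 calls was kept. Over the 18 alternatives other than single libraries in STF, the call of Coq2 was lost in 10. Those of Coq4, Pdss1 and Coq8a were lost in 5 each.

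Etfa and Etfdh, the alpha subunit and the dehydrogenase of the electron transfer flavoprotein system, carry electrons from fatty acid oxidation straight to coenzyme Q. Etfa had 64.8, 142 and 265 CPM on RFD and 75.8, 326 and 411 on HFD in STF, with 7 of 11 HFD mice above every RFD mouse, and it rose by 0.99 (SE 0.27, adjusted p = 0.0662, edgeR). In LTF it had 87.2, 113 and 297 CPM on RFD and 136, 202 and 364 on HFD, or 0.62 higher on the log2 scale (SE 0.20, adjusted p = 0.23). Etfdh rose by 1.22 in STF (SE 0.20, adjusted p = 0.0058) and had 0.77 in LTF (SE 0.27, adjusted p = 0.271, edgeR). With the tuft marker score as a covariate Etfdh stayed called in STF and Etfa did not, and with limma on TPM neither did. The third gene of that system, Etfb, had 0.02 and 0.11.

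**Figure D5:**
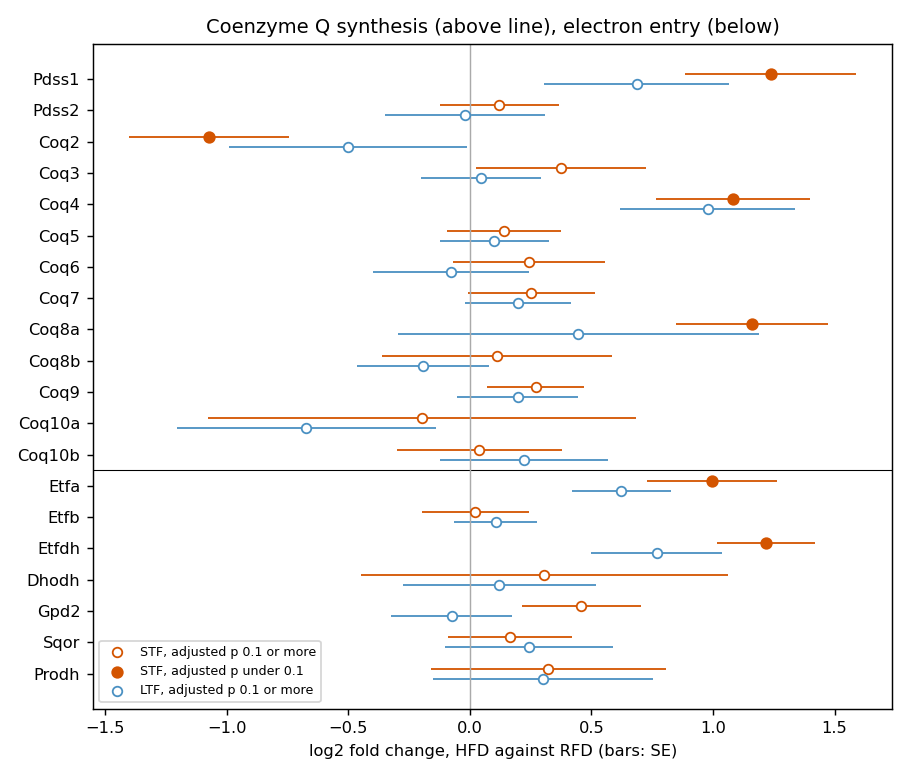
Log2 fold change of HFD against RFD with its standard error for 13 genes of coenzyme Q synthesis (above the line) and 7 genes of electron entry (below), in STF and LTF, with filled points for an adjusted p under 0.1. Pdss1, Coq4, Coq8a, Etfa and Etfdh are filled above 0 and Coq2 below 0, all in STF.

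The 13 subunits encoded by mitochondrial DNA, which share the complexes with the members, passed the test in neither set, with 1 at an unadjusted p under 0.05 in each, or 7.69%, beside 18.0% of all genes in STF and 10.3% in LTF. Their fitted values lay lower on HFD for 12 of 13 in STF, with a median of -0.30, and higher for 11 of 13 in LTF, with a median of 0.33. These counts include mt-Nd4l, mt-Co3 and mt-Nd3, which had no read in 35, 10 and 7 of the 45 libraries. Of the nonzero counts of these genes 100%, 97.1% and 94.7% were fractional, and of those of mt-Co1 and mt-Co2 100% and 93.3%, so their levels are uncertain. In STF the number series differed, as for mt-Cytb, the mitochondrial subunit of complex III, with 0.31, -1.73 and -0.27, and for mt-Nd1 of complex I with 0.47, -1.59 and 0.00. Series 2 holds RFD mice 40 and 10 and HFD mouse 50, with 28.2%, 22.5% and 29.4% of reads from mitochondrial DNA, and their part was not tested. The 39 assembly factors outside the rule had 1 call, a share of 2.56% beside 3.32% of all genes. This was Tmem70, a factor for complex V, which rose by 1.07 in STF (SE 0.33, adjusted p = 0.0970, edgeR) and had 0.43 in LTF, and whose STF call was lost in 8 of 18 alternatives. The list had medians of 0.16 and 0.22. Atpif1 and Usmg5, the remaining genes of complex V, passed in neither set.

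None of the 9 regulators of these genes passed the test. Over the 18 alternatives other than single libraries in STF, Tfam passed in 2 and Ppargc1a in 1. In LTF neither passed in any of 17. Tfam, the packaging and transcription factor of mitochondrial DNA, had 0.98 in STF (SE 0.42, adjusted p = 0.212) and 0.61 in LTF (SE 0.40, adjusted p = 0.637, edgeR), and Ppargc1a, a coactivator of mitochondrial genes, had -0.93 (SE 0.58) and -0.53 (SE 0.35). Gabpa, which overlaps exons of Atp5j on the opposite strand, had 0.79 and 0.72, Nrf1 0.40 and -0.10, and Esrra, the estrogen-related receptor alpha, -0.30 and -0.08. The highest group median among these 5 was that of Tfam on HFD in STF, 50.9 CPM, so their depth was low.

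Cell type markers moved between the diets beside these values. Among all genes, 3.32% were called in STF and 0.792% in LTF. In STF 15 of 16 tuft markers were fitted lower on HFD with 0 calls, all 6 Paneth cell genes higher with 0 calls and a median of 2.51, and 8 of 8 stem and cycling genes higher with 3 calls. In LTF the tuft list was again lower for 15 of 16, the Paneth list higher for 6 of 6 with a median of 1.27, and 3 of 9 enteroendocrine genes were called lower. Of 12 enterocyte genes 1 was called higher in STF, and 2 were called higher and 1 lower in LTF, with medians of -0.25 and 0.23. With the tuft marker score, tuft minus all other markers, as a covariate, 0 members passed in STF, where 27 genes (0.193%) passed in all. In LTF 1 member passed, Ndufa4, beside 1.73% of all genes. The members' medians were 0.10 in STF and 0.05 in LTF. With the enterocyte score as a covariate, 8 members passed in STF, beside 9.47% of all genes, and 1 in LTF, beside 0.892%.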

How the data were processed

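Bulk RNA-seq libraries of sorted tuft cells, 45 with a label that gives set, diet and mouse, were analysed, and 24 of 69 columns of the count tables matched no label and were not used. The authors trimmed the reads with cutadapt 1.15, aligned them with STAR 2.6.0 and counted them with RSEM, and the submitters' processing notes name GRCm38. They deposited expected counts, which divide reads that match several genes (8.79% of counts above 0 were not whole), and TPM. The authors' weighing of counts by cell type proportions was not repeated, and SAM-seq, the test of the study, was not run.

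Symbols came from GENCODE M21, and 27 genes that shared a symbol with a gene of more reads were removed. Expected counts were rounded, and genes with more than 5 reads in at least 6 libraries were fitted in each set with edgeR 4.0.16 (TMM, quasi-likelihood F test with robust squeezing, R 4.3.3), with Benjamini-Hochberg adjustment over all 14020 genes and a threshold of 0.1. The difference between the sets was fitted over all 45 libraries. Each library is 1 mouse. CPM compares libraries of a gene, and TPM compares genes. Standard errors are the log2 fold change divided by the root of F. Total counts, from 189340 to 4690213 per library, limit the precision of low genes.

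Libraries were counted without stated use of strand, so 30 members whose exons overlap those of another gene, and members with many fractional counts, are uncertain. Lengths are those of the longest transcript tagged as principal or, where a gene has none, of its longest transcript, so some may exceed the form expressed. Named members were those that passed, the 3 highest in TPM of each complex, isoform families, a fixed list of core subunits and the extremes of each set. The test was tested on simulated counts. DESeq2 1.42.0 and limma 3.58.1 were alternatives. The members and all lists were chosen with earlier results of these data known, so no test over a list was run. Same-numbered libraries of the sets did not deviate together (correlations from -0.366 to 0.346 over 16 pairs).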

Additional observations from a re-analysis of the deposited data

How the results depend on the processing

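The number of members past the threshold changed with the method, and so did the share of all genes called, from 0.0% to 11.6% in STF and from 0.0428% to 3.91% in LTF. In STF, where 2 members and 3.32% of genes passed, there were 11 with DESeq2 (10.9% of genes), 7 with limma-voom (11.6%), 0 with limma on log2(TPM + 1) (0.0642%), 4 with a stricter filter (9.19%), 1 with the number series as a term, 0 with the tuft score and 8 with the enterocyte score as a covariate (0.193% and 9.47%), 0 without the libraries of low totals and 1 without the dominant and mitochondrial genes. Among settings chosen after seeing the data there were 5 with bias-adjusted deviances (11.5%) and 0 without number series 1 or without number series 3. In LTF, where 1 passed, there were 2 with DESeq2 and without number series 1, and 0 with limma-voom, without the filter, without number series 2 and without number series 3. Leaving out 1 library at a time, also chosen after seeing the data, gave 0 to 11 members in STF and 0 to 5 in LTF. The difference between the sets had 0 members in all alternatives run. No LTF library had a low total, so that alternative was not run there, and SAM-seq was not run. The causes were not tested. The median over members ran from 0.048 to 0.219 in STF and from 0.048 to 0.114 in LTF over the alternatives other than single libraries, and from 0.099 to 0.258 and from 0.018 to 0.098 over single libraries left out.

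Signs were followed for 36 of the genes named, and turned only for some that had not passed in that set. Other members turned too: over the alternatives 50 to 70 of the members were fitted higher in STF, with 50 by limma on TPM, where the fit reported had 61. Of the genes followed, those that turned in STF were Sdhb (-0.048 with TPM, -0.033 with the tuft score), Cycs (-0.215 with TPM, -0.109 with the tuft score, -0.037 without low totals, -0.083 without series 1), Cox7a1 (0.057 with TPM), Cox4i1 (0.013 without the filter, 0.011 with the enterocyte score, 0.062 without series 1), Cyc1 (-0.063) and Ndufaf7 (-0.150), both with the tuft score. In LTF they were Ndufaf7 (0.087 with DESeq2, 0.248 without series 1), Coq2 (0.313 and 0.117 likewise), Esrra (0.158 with voom, 0.097 with TPM, 0.068 with the enterocyte score, 0.096 without series 3), Nrf1 (0.121 with TPM, 0.090 with the enterocyte score, 0.189 without series 2) and Sdhb (0.020 without the filter, 0.010 without series 2).

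The diets of a set share no mouse numbers, so a replicate block could be fitted only for the difference between the sets, over 32 libraries, where it gave 0 members. Of 16 same-numbered pairs 2 had correlated deviations over 0.1, and 1 library correlated best with its own number, so the numbers do not pair the mice.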
